A study of Sus scrofa with 12 samples.

Results

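Genes of the respiratory chain and of ATP synthase were followed in porcine endometrium, the lining of the uterus, on Day 14 after insemination. Members were matched by gene symbol, as NDUF, SDHA to SDHD, UQCR, CYC1, CYCS, COX4 to COX8 and ATP5 genes. This set was chosen with earlier results of these data known. Of the 6765 genes with a named probe set 65 matched, with 83 probe sets among them. The brightest probe set over the 12 arrays stood for each gene. By complex, 35 members belonged to complex I, 5 to complex II, 2 to complex III, 8 to complex IV and 14 to complex V, and CYCS, which encodes cytochrome c, was the remaining 1. Of the 65, 60 encode subunits or cytochrome c, and 5 match the pattern without being subunits of the working enzymes (NDUFAF1, NDUFAF2, NDUFAF3, SDHAF2 and ATP5S). On 3 or more arrays each of the 65 exceeded the median of all values. Of 26 names of subunits and RNAs encoded by mitochondrial DNA, 0 had a named probe set, so the values describe nuclear genes.

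The groups were 6 pregnant sows and 6 non-pregnant sows that had received inactivated semen, each with 3 Yorkshire (YY) and 3 Landrace (LL) sows. Tissue came from the epithelium and the connective tissue beneath it, without the outer muscle, after the uterine horns had been flushed, and each sow gave 1 array of total RNA. The values are RMA log2 expression values, on which a difference of 1 is a doubling, and they compare a probe set between sows but not 1 gene with another.

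The respiratory chain is a row of enzyme complexes in the inner mitochondrial membrane. Complexes I and II feed electrons from NADH and succinate to ubiquinone, complex III passes them to cytochrome c, and complex IV hands them to oxygen. Complexes I, III and IV pump protons while doing so, and complex V, the ATP synthase, lets the protons back and makes ATP. In early pregnancy the endometrium secretes nutrients for the free conceptuses and is remodelled for their attachment.

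Array medians lay between 6.25 and 6.30. On the first principal component of all 23999 probe sets, which held 36.8% of the variance, non-pregnant sow 7 lay at 20.4 among the pregnant sows and pregnant sow 12 at -18.9 among the non-pregnant sows. The 11 measured epithelial and 8 measured stromal markers, which define the labelled tissue, exceeded that median on all 12 arrays. The difference between the 3' and 5' GAPDH control probe sets, which widens as RNA degrades, was 0.597 ± 0.141 in the pregnant group and 0.538 ± 0.150 in the non-pregnant group (SD, 6 sows each). By breed it ranged from 0.545 to 0.773 in Yorkshire and from 0.379 to 0.538 in Landrace sows.

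The first comparison asked how these genes differed between pregnant and non-pregnant sows. Of the 65 members, 32 were lower in pregnant sows and 0 were higher at an adjusted p under 0.05 (limma, Benjamini-Hochberg over 23999 probe sets). Across all probe sets 3.94% were called lower and 3.95% higher, and among the probe sets that exceeded the median on 3 or more arrays 6.7% were called lower. The share of members was 49.2%. The log2 difference was below 0 in 61 of the 65 members against 47.2% of all probe sets, and at or below -0.25 in 43 against 11.5%. Its median was -0.31, which corresponds to 80.4% of the non-pregnant level, while the median of all probe sets was 0.01. In 16 members every pregnant sow lay below every non-pregnant sow, against 1.4% of all probe sets, and in 0 members did every pregnant sow lie above, against 1.3%. Of the 12920 probe sets that exceeded the median on 3 or more arrays, 2283 were at or below -0.25. Without overlap between the groups 310 of them were lower and 262 higher. In bulk tissue, fewer cells of a type that is rich in these transcripts and less transcript per cell cannot be told apart.

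The number of calls depended on single sows. Without pregnant sow 2, 4 or 6 it was 18, 21 and 19, and without non-pregnant sow 3 or 9 it was 19 and 20. All 32 members stayed below 0 whichever of the 12 sows was left out, and 18 of the 32 kept their call throughout. It was 32 without non-pregnant sow 7 and pregnant sow 12 together, of which 28 were among the 32 called over all sows.

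**Figure D1:**
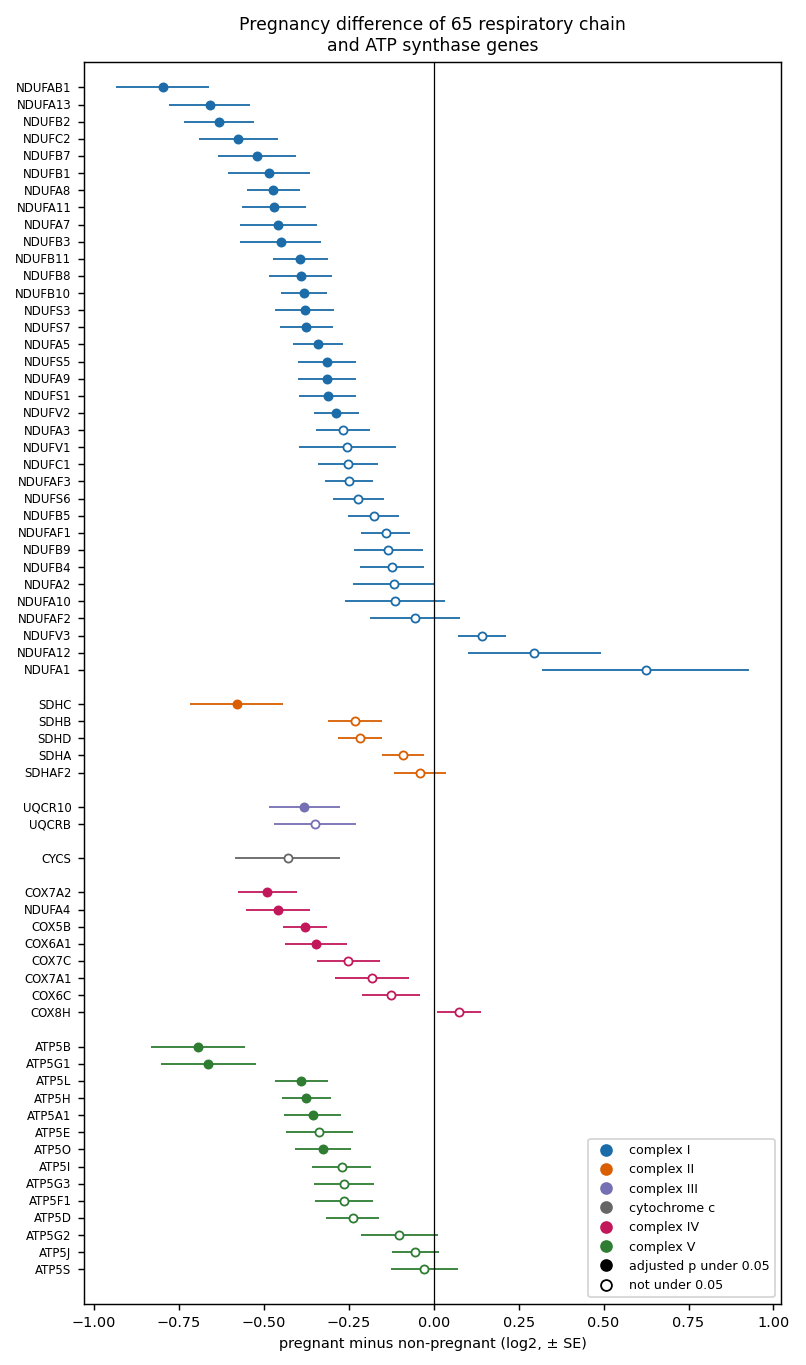
Pregnant minus non-pregnant difference on the log2 scale (x axis, points with SE, n = 6 sows per group) of the 65 genes (y axis), ordered by complex, with filled points at an adjusted p under 0.05 (limma). All filled points lie left of 0, and the 4 points right of 0 are open.

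Each sow's mean over the 65 members, relative to the mean of the non-pregnant sows, separated the groups. Pregnant sows ranged from -0.460 (sow 6) to -0.216 (sow 8), and non-pregnant sows from -0.0905 (sow 7) to 0.196 (sow 3). Between 54 and 61 of the 65 members were below the non-pregnant mean in each pregnant sow, against 9 in non-pregnant sow 3 and up to 49 in the other non-pregnant sows. Non-pregnant sow 3 therefore stood above its group over most members. The means of complexes I and V did not overlap between the groups: they were -0.473 to -0.178 in pregnant and -0.0967 to 0.206 in non-pregnant sows for complex I, and -0.462 to -0.216 against -0.0664 to 0.141 for complex V. The complex II means were -0.393 to -0.0806 against -0.0926 to 0.0815 and overlapped. Those of complex IV overlapped between -0.145 and -0.141, and those of the 2 complex III genes over a wider stretch.

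**Figure D2:**
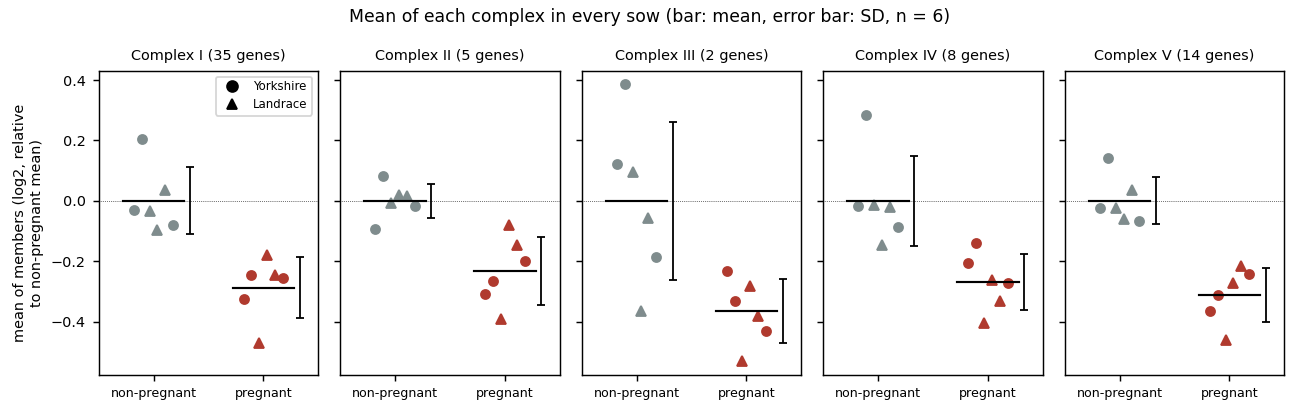
Mean of the members of each complex in every sow (y axis, log2 relative to the mean of the non-pregnant sows) for 6 non-pregnant and 6 pregnant sows (x axis), with Yorkshire sows as circles, Landrace sows as triangles, group means as bars and the SD beside them. Non-pregnant sow 3, a Yorkshire sow, is the highest circle in each panel, at 0.206 for complex I and 0.285 for complex IV.

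Complex I, the NADH dehydrogenase, is the largest part of the set, with 35 of the 65 members. Of these, 20 were called lower in pregnant sows, with a median difference of -0.31. The called share was 57.1% in complex I and 49.2% over all members. In complexes II, III, IV and V it was 20%, 50%, 50% and 42.9%. For these counts and those by part and complex below, the share over all probe sets is the 3.94% called lower. By place in the enzyme, 13 of 20 genes of the membrane arm, which holds the proton channels, were called lower, and 4 of 4 of the module that reduces ubiquinone (NDUFS3, NDUFS7, NDUFA5 and NDUFA9). Of 8 genes of the module that takes electrons from NADH 3 were called lower (NDUFS1, NDUFV2 and NDUFA7), and of the 3 assembly factors 0. The call count of complex I was 11 to 20 when single sows were left out, and was 11 without pregnant sow 2 or 6, 12 without non-pregnant sow 3 and 13 without non-pregnant sow 9.

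NDUFB2, a small subunit of the membrane arm, lay at 9.69, 9.99 and 10.22 in non-pregnant sows and at 9.04, 9.35 and 9.62 in pregnant sows (lowest, median and highest log2 value, n = 6 each). The groups did not overlap, and the difference was -0.63 ± 0.10 (SE, limma adjusted p = 0.00688). NDUFA8, a subunit on the outer face of the arm, lay at 8.95, 9.11 and 9.43 against 8.45, 8.69 and 8.80, a difference of -0.47 ± 0.08 (limma adjusted p = 0.00688) without overlap. NDUFB10, another subunit of the arm, was lower by 0.38 ± 0.07 on the log2 scale (limma adjusted p = 0.00890), at 8.74 to 9.01 against 9.10 to 9.36.

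NDUFAB1 is the mitochondrial acyl carrier protein, which also serves fatty acid and lipoic acid synthesis outside complex I. It had the lowest difference of the 65 members, -0.80 ± 0.14 (limma adjusted p = 0.00765), which is 57.5% of the non-pregnant level. Its values were 10.21, 10.66 and 11.46 in non-pregnant and 9.69, 9.92 and 10.30 in pregnant sows. The groups overlapped only through pregnant sow 12, and within each breed they did not overlap.

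The other called genes of complex I were NDUFA13 (-0.66), NDUFC2 (-0.57), NDUFB7 (-0.52), NDUFA11 (-0.47) and the remaining 12 at -0.49 to -0.29. Of these, NDUFV2 carries an iron-sulfur centre of the electron input module, NDUFS7 holds the last centre before ubiquinone, and NDUFS3 is a core subunit of the arm between them. The NDUFS3 call ended without pregnant sow 2 or 6 and the NDUFV2 call without sow 2, 3, 4 or 6, at limma adjusted p up to 0.0580 and 0.0626. NDUFS3 and NDUFV2 each had 2 dimmer probe sets with differences of 0.28 and -0.19, and of 0.05 and 0.03, none of them called, so for both genes the call rests on the brightest probe set. The second probe set of NDUFB3 was called in the same direction (-0.38), while the call on its brightest was lost on omission of any of 9 sows (all except 7, 8 and 11), at limma adjusted p up to 0.0929. The NDUFA9 call was lost likewise for 9 sows (all except 5, 10 and 12), at limma adjusted p up to 0.0985. For NDUFS1 the same held of 9 sows (all except 7, 8 and 12), at limma adjusted p up to 0.0931. For NDUFA7 it held of 8 sows (all except 7, 8, 11 and 12), at limma adjusted p up to 0.0742. NDUFB1 lost its call for the same 8 sows as NDUFA7, at limma adjusted p up to 0.0789. NDUFS5 lost its call for 10 sows (all except 8 and 11), at limma adjusted p up to 0.101. The NDUFB8 call ended without sow 2, 3, 5, 6, 9 or 10, at limma adjusted p up to 0.0672.

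Complex I also held 3 of the 4 members above 0, none of them called. NDUFV3, a small accessory subunit of the electron input module, differed by 0.14 (limma adjusted p = 0.261), and NDUFA12 by 0.30 ± 0.20 (limma adjusted p = 0.415). NDUFA1, a membrane-arm subunit needed for assembly, differed by 0.62 ± 0.30 (limma adjusted p = 0.247). NDUFA1 and NDUFA12 were singled out after their values were seen.

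The 2 probe sets of NDUFA1 went opposite ways. On the brighter one, non-pregnant sows lay between 10.63 and 11.01 and pregnant sows at 11.06 to 12.55 except sow 6, at 10.08. Without pregnant sow 6 that probe set was called higher, by 0.92 (limma adjusted p = 0.0246). The second, nearly as bright at a mean of 10.79 against 11.05, was called lower by 0.51 ± 0.11 on the log2 scale (limma adjusted p = 0.0154), at 10.38 to 10.70 in pregnant and 10.61 to 11.31 in non-pregnant sows. The direction of NDUFA1 is therefore uncertain.

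**Figure D3:**
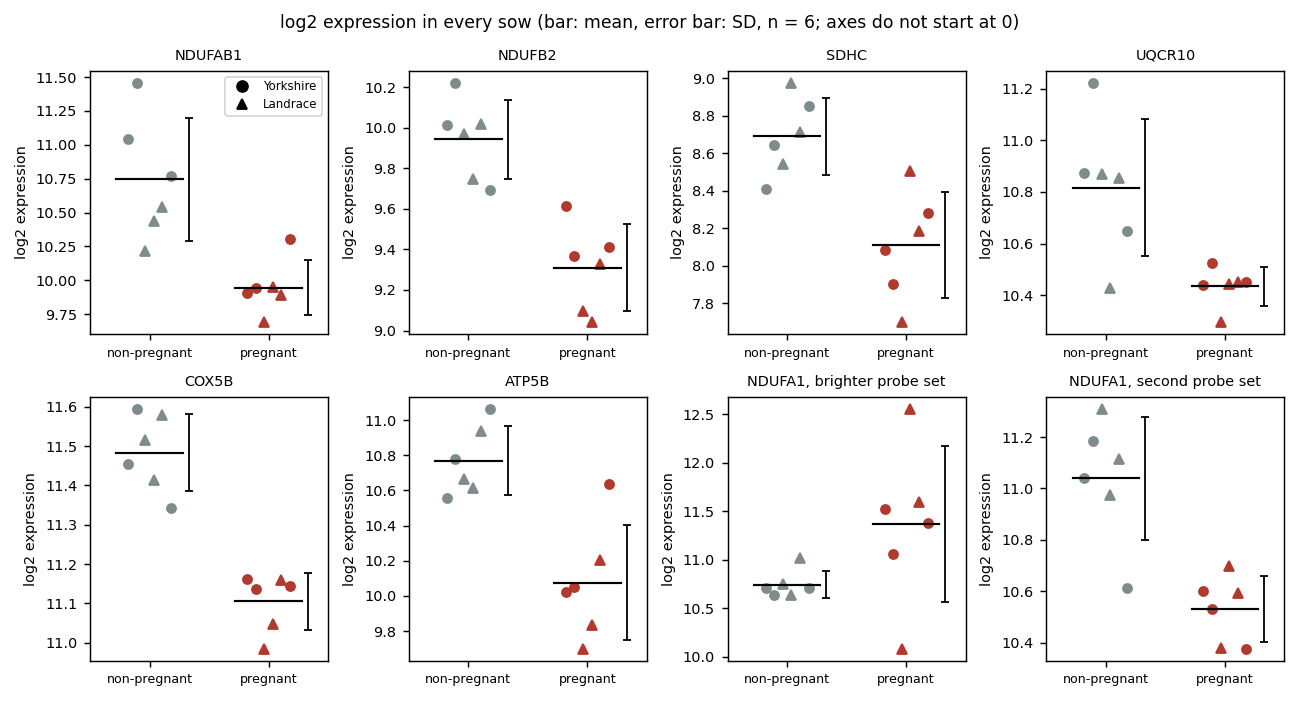
log2 expression (y axis, scaled separately in each panel) of NDUFAB1, NDUFB2, SDHC, UQCR10, COX5B, ATP5B and both NDUFA1 probe sets in 6 non-pregnant and 6 pregnant sows (x axis), with Yorkshire sows as circles, Landrace sows as triangles, group means as bars and the SD beside them. NDUFB2 and COX5B do not overlap between the groups, and the 2 NDUFA1 probe sets point in opposite directions.

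Complex II is succinate dehydrogenase, which belongs to both the citric acid cycle and the respiratory chain. Of its 5 genes 1 was called, the membrane anchor SDHC. It lay at 8.41, 8.68 and 8.98 in non-pregnant and at 7.70, 8.14 and 8.50 in pregnant sows, a difference of -0.58 ± 0.14 (limma adjusted p = 0.0246) with a slight overlap. Omission of pregnant sow 2 or 4, or of sow 3, 9 or 11 of the other group, ended the call, with limma adjusted p up to 0.0590. The second anchor, SDHD, differed by -0.22 (limma adjusted p = 0.0632), and the flavin-carrying catalytic subunit SDHA by -0.09 (limma adjusted p = 0.428), with a second probe set at -0.10. The iron-sulfur subunit SDHB differed by -0.23 (limma adjusted p = 0.0933). It passed the threshold once non-pregnant sow 7 was left out (limma adjusted p = 0.0447), but its dimmer probe set differed by 0.40 (limma adjusted p = 0.214). The assembly factor SDHAF2 differed by -0.04.

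Complex III was measured through 2 small subunits. UQCR10 lay at 10.43, 10.86 and 11.22 in non-pregnant and at 10.30, 10.45 and 10.53 in pregnant sows, and was called lower by 0.38 ± 0.11 on the log2 scale (limma adjusted p = 0.0459). The call held only without non-pregnant sow 11 or 7 and ended without any 1 of the other 10 sows, with limma adjusted p up to 0.103. UQCRB, which helps to bind ubiquinone, differed by -0.35 (limma adjusted p = 0.0999). CYCS, the mobile carrier between complexes III and IV, differed by -0.43 ± 0.15 (limma adjusted p = 0.109). Its value in pregnant sow 10 was 7.86, close to the non-pregnant highest value of 7.90, and without that sow CYCS was called lower (limma adjusted p = 0.0269).

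Complex IV, cytochrome c oxidase, had 4 of 8 genes called lower and a median difference of -0.30. Its measured genes are all nuclear subunits around the catalytic core. COX5B, which binds zinc, lay at 11.34, 11.48 and 11.59 in non-pregnant and at 10.98, 11.14 and 11.16 in pregnant sows, a difference of -0.38 ± 0.06 (limma adjusted p = 0.00758) without overlap. NDUFA4, named for complex I but a subunit of complex IV, lay at 11.04 to 11.70 against 10.53 to 11.02, a difference of -0.46 ± 0.09 (limma adjusted p = 0.0147), also without overlap.

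Several subunits of complex IV exist as tissue forms, but only COX7A1 and COX7A2 were both measured as a pair. COX7A2, the form of most tissues, lay at 10.75, 10.80 and 11.17 in non-pregnant and at 10.04, 10.35 and 10.60 in pregnant sows, a difference of -0.49 ± 0.09 (limma adjusted p = 0.00848) without overlap, and its muscle counterpart COX7A1 differed by -0.18 (limma adjusted p = 0.357). COX6A1, the non-muscle form, was called lower at -0.35 ± 0.09 (limma adjusted p = 0.0400), a call that ended without any 1 of 10 sows (all except non-pregnant sows 7 and 11), with limma adjusted p up to 0.0931. COX8H, a heart form, differed by 0.07 (limma adjusted p = 0.570). Whether the forms of a pair differed from each other was not tested.

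Complex V had 6 of 14 genes called lower, a median difference of -0.30 and all 14 below 0. ATP5B, the catalytic beta subunit, lay at 10.56, 10.72 and 11.06 in non-pregnant and at 9.70, 10.04 and 10.64 in pregnant sows, a difference of -0.69 ± 0.14 (limma adjusted p = 0.0131), or 61.8% of the non-pregnant level. The pregnant sow that overlapped with the other group was sow 12. ATP5A1, the alpha subunit beside it in the catalytic head, was lower by 0.36 on the log2 scale (limma adjusted p = 0.0239), a call lost on omission of sow 2, 4 or 6 of the pregnant or sow 3 or 9 of the non-pregnant group, with limma adjusted p up to 0.0584.

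Of the 3 genes for the identical c subunit, whose ring turns with the proton flow, ATP5G1 was called and the others were not. ATP5G1 lay at 10.00, 10.28 and 10.55 in non-pregnant and at 9.23, 9.67 and 10.08 in pregnant sows, a difference of -0.66 ± 0.14 (limma adjusted p = 0.0163). ATP5G2 differed by -0.10 (limma adjusted p = 0.669) and ATP5G3 by -0.26 (limma adjusted p = 0.0899), both named after their values were seen.

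In the stalk that holds the head in place, 2 of 4 genes were called: ATP5H at -0.38 ± 0.07 (limma adjusted p = 0.0122) and ATP5O at -0.33, both without overlap. The ATP5O call ended without any 1 of 8 sows (all except non-pregnant sows 7 and 11 and pregnant sows 8 and 12), with limma adjusted p up to 0.0708. ATP5L, a membrane subunit that takes part in pairing the enzymes, differed by -0.39 ± 0.08 (limma adjusted p = 0.0130) without overlap, while its 2 very dim probe sets differed by -0.22 and -0.07. The central stalk had 0 of 2 called. ATP5J of the peripheral stalk and ATP5S, a coupling factor gene, differed by -0.05 and -0.03.

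The 5 genes that are not subunits had 0 calls and a median difference of -0.06, against 32 of 60 and -0.33 for the subunits. NDUFAF3, an assembly factor, lay just past the threshold at -0.25 (limma adjusted p = 0.05004) and was called without pregnant sow 4 or 8, and ATP5E of the central stalk at -0.34 (limma adjusted p = 0.0566) passed the threshold once non-pregnant sow 7 or pregnant sow 8 or 12 was left out. Whether subunits and the others differed was not tested.

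The members also varied together among sows of the same group and breed. After the mean of each of the 4 groups was taken off, the median correlation over 2080 pairs of members was 0.429 and 79.6% of pairs were above 0, against 0.0095 and 50.8% over all pairs of the 6765 genes. Over pairs of the 5100 genes that exceeded the median on 3 or more arrays the values were 0.0362 and 53.0%. The pairs share the same 12 arrays and their normalization, so the values are a description. Each of the 4 groups held 3 sows, and single sows stood apart in their mean over the members. Non-pregnant sow 3 was at 0.196, with sows 1 and 11 of its group and breed at -0.0292 and -0.0740. Pregnant sow 6 was at -0.460, with sows 8 and 10 at -0.216 and -0.241. The part of these sows in the correlations was not tested. The median was 0.529 in complex IV, 0.467 in complex I and 0.272 in complex V. NDUFA11 followed the mean of the other members most closely (r = 0.950) and ATP5J the least (r = -0.401).

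The second comparison asked whether the members differed between the breeds. Landrace sows had 0 of the 65 members lower and 1 higher, against 2.93% and 2.22% of all probe sets. An unadjusted p under 0.05 was reached by 13 of the 65 and by 20.2% of all probe sets. It was reached by 3478 of the 12920 probe sets that exceeded the median on 3 or more arrays, as all 65 members did. The median difference was -0.05, with 44 of 65 below 0, against 47.7% of all probe sets. ATP5J, a peripheral stalk gene of complex V, was the called member: its mean was 8.61 in Landrace and 8.34 in Yorkshire sows, a difference of 0.27 ± 0.07 (limma adjusted p = 0.0445), and every Landrace sow lay above every Yorkshire sow, the 1 member of which that was true (1.24% of all probe sets; in the other direction 0 members and 1.73%). The call ended without any 1 of 10 sows (all except non-pregnant sows 5 and 9), with limma adjusted p up to 0.100.

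Other breed differences did not pass. NDUFV3 was higher in Landrace sows by 0.26 (limma adjusted p = 0.0569) and was called without pregnant sow 2 or 6. NDUFAB1 differed by -0.45 ± 0.14 (limma adjusted p = 0.0824), ATP5S by 0.29 (limma adjusted p = 0.118), COX7C of complex IV by -0.26 (limma adjusted p = 0.134), SDHA by -0.17 and SDHB by 0.21. The GAPDH 3' to 5' difference also separated the breeds, as given above. With that difference as a covariate 0 members were higher in Landrace sows, ATP5J differed by 0.16 (limma adjusted p = 0.756), and ATP5B, at -0.19 without the covariate, differed by 0.33, neither value for ATP5B passing. Since the GAPDH difference did not overlap between the breeds, this fit cannot separate it from breed, and the lost call decides nothing about ATP5J.

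Within each breed 3 pregnant sows were compared with 3 non-pregnant sows. In Yorkshire sows 0 members were called, and 0 of all probe sets were, while 40 members were lower at an unadjusted p under 0.05 (8.17% of all probe sets) and 0 higher (7.11%), with a median of -0.33. In Landrace sows 1 member was called lower (0.479% of all probe sets) and 0 higher (0.55%), and 34 were lower at an unadjusted p under 0.05 (7.15%) and 0 higher (8.37%), with a median of -0.29. The called gene was NDUFB2, at -0.76 ± 0.14 in Landrace (limma adjusted p = 0.0372) and -0.51 in Yorkshire sows. The Yorkshire count was 9 without pregnant sow 12. The NDUFB2 call was lost on omission of sow 1, 5 or 9 of the non-pregnant or sow 6, 8 or 10 of the pregnant group, with limma adjusted p up to 0.134.

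Both breeds had 56 of the 65 members below 0, against 31% of all probe sets, and in 25 the groups did not overlap in either breed, against 3.05%. Of the 12920 probe sets that exceeded the median on 3 or more arrays, 4934 were below 0 in both breeds. In 650 of them pregnant sows were lower without overlap in either breed. Across the 65 members the Yorkshire and Landrace differences correlated at r = 0.789 (Spearman's rho = 0.755), against r = 0.622 over all probe sets, as a description only. For the interaction, which tests whether pregnancy differences depend on breed, 0 members and 0 of all probe sets were called, and 1 member had an unadjusted p under 0.05 (1.87% of all probe sets in the negative and 2.14% in the positive direction). That member was NDUFAF1, a complex I assembly factor, at -0.32 in Yorkshire and 0.04 in Landrace sows (interaction 0.36 ± 0.11, unadjusted p = 0.00787, limma adjusted p = 1.00). NDUFAB1 followed at an interaction of 0.49 ± 0.25 (unadjusted p = 0.0745, limma).

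**Figure D4:**
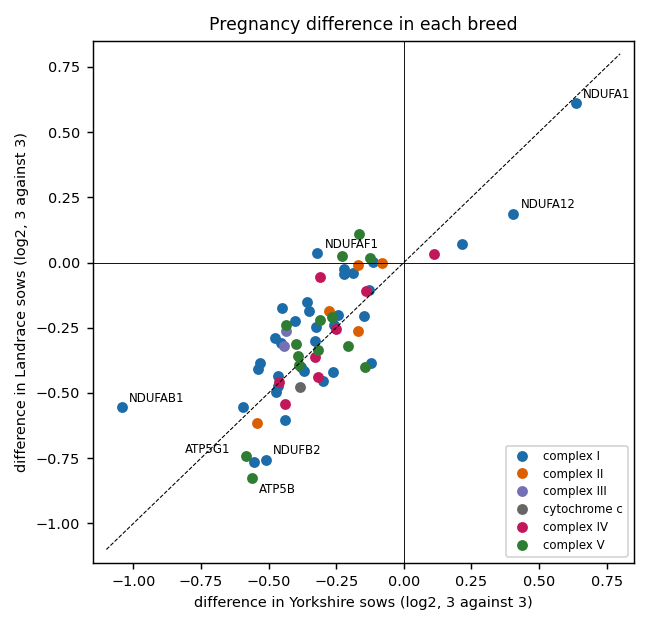
Pregnant minus non-pregnant difference of each of the 65 members in Yorkshire (x axis) and Landrace sows (y axis), on the log2 scale, 3 against 3 sows in each breed, with colours for the complexes and a dashed line where both are equal. The points of 56 members lie below 0 in both breeds, NDUFAB1 lies farther below 0 in Yorkshire and NDUFB2 farther below 0 in Landrace sows.

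Genes that lie next to the respiratory chain were counted on lists chosen with earlier results known. Over all probe sets 3.94% were called lower and 3.95% higher, and no list was tested against these shares. Of 10 measured genes of electron entry to ubiquinone outside the complexes, 2 were called lower and 1 higher. ETFB and ETFA, which carry electrons from fatty acid oxidation, differed by -0.94 ± 0.19 and -0.34 (limma adjusted p = 0.0128 and 0.0218), and CHDH, choline dehydrogenase, by 0.48 (limma adjusted p = 0.0168). The ETFA call was lost on omission of sow 2, 6 or 10 of the pregnant or sow 3 or 9 of the non-pregnant group, with limma adjusted p up to 0.0570. Of 10 measured carriers and porins 2 were lower, the outer-membrane channels VDAC1 (-0.39 ± 0.07, limma adjusted p = 0.00887, no overlap) and VDAC2 (-0.29, limma adjusted p = 0.0404). The VDAC2 call held only when sow 1 of the non-pregnant or sow 10 or 12 of the pregnant group was omitted, with limma adjusted p up to 0.0957 otherwise, and the mean of its probe sets differed by 0.04.

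Of 12 genes often used as markers of mitochondrial mass, 4 were lower and 0 higher: VDAC1, the chaperones HSPE1 (-0.60, limma adjusted p = 0.0137) and HSPA9 (-0.46, limma adjusted p = 0.0148), and CS, citrate synthase (-0.36, limma adjusted p = 0.0383), which was named after its values were seen. The CS call ended without any 1 of 7 sows (all except non-pregnant sows 5 and 7 and pregnant sows 8, 10 and 12), with limma adjusted p up to 0.0898. VDAC1 stands on both lists. The median difference of the list was -0.21, against -0.31 for the respiratory chain. Whether the respiratory chain genes differ from mitochondrial transcripts in general was not tested.

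Of 10 regulators of mitochondrial gene expression, 1 was lower and 1 higher. SSBP1, which coats single-stranded mitochondrial DNA, differed by -0.31 (limma adjusted p = 0.0265), a call lost on omission of sow 2, 4 or 6 of the pregnant or sow 3 or 5 of the non-pregnant group (limma adjusted p up to 0.0668). PPARGC1A, a coactivator known for driving mitochondrial genes, differed by 0.59 ± 0.16 (limma adjusted p = 0.0476), a call that ended without any 1 of 9 sows (all except pregnant sows 4 and 12 and non-pregnant sow 11), with limma adjusted p up to 0.110. PPARGC1A was also lower in Landrace than in Yorkshire sows by 0.68 on the log2 scale (limma adjusted p = 0.0340). So were HSPE1 (-0.55) and TOMM22 (-0.67) of the mitochondrial mass list, while the assembly factor ATPAF1 was higher (0.47). Their limma adjusted p were 0.0227, 0.0232 and 0.0309. Among the cell type markers described below, COL1A2 of stroma differed between the breeds by -0.77, Landrace minus Yorkshire (limma adjusted p = 0.0266). CLDN3 of epithelium differed by 0.54 (limma adjusted p = 0.0394). Over all probe sets 2.93% were called lower and 2.22% higher in Landrace sows. Breed and the GAPDH 3' to 5' difference cannot be told apart in these values. Of 11 assembly factors outside the symbol rule 0 were called, with a median of -0.05 and ACAD9, of complex I assembly, at 0.30 (limma adjusted p = 0.0542), called without pregnant sow 4 or non-pregnant sow 11 (limma adjusted p down to 0.0449).

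Markers of the cell types in the tissue moved as well, and their part in the values above was not tested. Beside the counts of each marker list stand 3.94% of all probe sets called lower and 3.95% called higher. Of 11 measured epithelial markers 2 were lower and 0 higher, CLDN7 (-0.47, limma adjusted p = 0.0272) and KRT8 (-0.83, limma adjusted p = 0.0422). The list's median difference was -0.14, with 9 of the 11 below 0. CDH1 and CLDN4 lay above 0, at 0.34 and 0.42 (limma adjusted p = 0.0876 and 0.315). The list's mean in each sow, set against the mean of the non-pregnant group, ranged from -0.647 to 0.0679 with pregnancy and from -0.144 to 0.0876 without. The epithelial and the member mean were -0.647 and -0.460 in pregnant sow 6, and 0.0679 and -0.241 in pregnant sow 10. In the other pregnant sows the epithelial means were -0.410 to -0.110 and the member means -0.312 to -0.216. Pregnant sow 10 also stood apart for conceptus trophoblast markers, as given below. Whether the epithelial and member means were related was not tested. Of 9 endothelial markers 7 were higher and 0 lower, with VWF at 0.91 ± 0.18 (limma adjusted p = 0.0127), CDH5 at 0.92 and TIE1 at 0.54, and the list's means ranged from 0.375 to 0.924 with pregnancy and from -0.296 to 0.217 without.

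Of 8 stromal markers 4 were higher, VIM, THY1, DCN and PDGFRB (0.65, 1.37, 0.31 and 0.37), and 1 was lower, DPT (-0.85), with a list mean of -0.0238 to 0.589 in pregnant and -0.280 to 0.285 in non-pregnant sows. Of 7 smooth muscle markers 1 was higher, MYL9 (0.37), at list means of -0.000360 to 0.697 and -0.199 to 0.254. PDGFRB and DPT were named after their values were seen. The calls of CLDN7, KRT8, DCN, PDGFRB, DPT and MYL9 were each lost on omission of any 1 of 6 or more sows, pregnant sows 2 and 6 and non-pregnant sows 3 and 5 among them, with limma adjusted p up to 0.106.

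Of 7 leukocyte markers 0 were called; their mean reached 1.54 in non-pregnant sow 7 and ranged from -0.417 to 0.0973 elsewhere, and CD163, a macrophage receptor, differed by -0.77 (limma adjusted p = 0.485). Of 2 erythrocyte markers 0 were called, with HBB at -0.34 (limma adjusted p = 0.112), which was called without non-pregnant sow 7 or pregnant sow 12. Of 6 conceptus trophoblast markers 0 were called and 4 were below the median of all values on every array, and their mean was 2.23 in pregnant sow 10, 0.726 in pregnant sow 6 and at most 0.235 in the others. IFNG, made by the pig conceptus, ranged from 4.00 to 12.65 in pregnant and from 3.61 to 4.41 in non-pregnant sows.

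**Figure D5:**
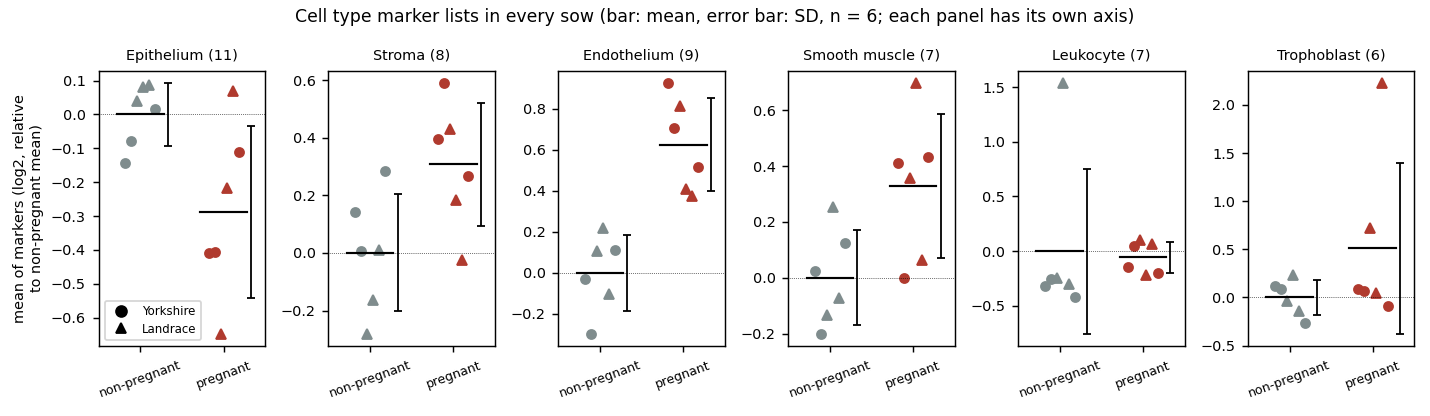
Mean of the measured markers of 6 cell types in every sow (y axis, log2 relative to the mean of the non-pregnant sows, scaled separately in each panel), for 6 non-pregnant and 6 pregnant sows (x axis), with Yorkshire sows as circles, Landrace sows as triangles, group means as bars and the SD beside them; the number of measured markers stands in each title. The endothelial means do not overlap between the groups, and non-pregnant sow 7 and pregnant sow 10 stand apart for leukocyte and trophoblast markers.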

How the data were processed

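The authors deposited 1 table of log2 expression values for 24123 probe sets on 12 Affymetrix porcine arrays, 1 per sow. RMA, affy and limma are named without versions in the submitters' processing notes. RMA corrects background and makes the arrays' distributions alike, so a difference is measured against the rest of the array. It keeps no count of molecules, and precision is limited by the number of arrays. The genome build is not given in the sources used here.

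Leaving out 124 control probe sets left 23999. Of these 10069 had 1 gene symbol, 198 several and 13732 none in the platform annotation. All 65 members were found in the RefSeq gene table, with 0 names that differ. Limma 3.58.1 in R 4.3.3 (lmFit, eBayes, two-sided) fitted pregnancy and breed additively (9 residual degrees of freedom). Contrasts within breeds and the interaction came from a fit of 4 groups (8 residual degrees of freedom). P-values were adjusted by Benjamini-Hochberg over all 23999, with a threshold of 0.05. The procedure was tested on simulated data.

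Members and lists were chosen with earlier results of these data known. Named genes were, per complex, the 4 called members with the smallest pregnancy p (the 2 smallest where fewer than 2 were called), the 2 with the smallest breed p, members called against the majority, the 2 with the smallest interaction p, tissue isoforms and all SDH genes. From other lists up to 3 called members were named, or 1 where none was called. Other genes the text names were chosen after their values were seen. Alternatives changed the normalization, filter, variance model, array weights, threshold, probe set, terms and sows. Sequences and promoter motifs were not analysed here.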

Additional observations from a re-analysis of the deposited data

Results flagged for a closer look

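In 66 groups of 6 sows, made of the named genes and the complex means in pregnant and in non-pregnant sows, 4 had a highest or lowest sow farther from its neighbour than the Dixon limit allows, and chance flags about 1 in 20 groups. COX7A2 reached 11.17 in non-pregnant sow 3, where the rest of its group spanned 10.75 to 10.85, and the mean of complex IV in the same sow was 0.285, with the rest at -0.145 to -0.0147. ATP5J reached 8.81 in non-pregnant sow 7, where the rest of its group spanned 8.36 to 8.52. UQCR10 was 10.30 in pregnant sow 6, where the rest of its group spanned 10.44 to 10.53.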

How the results depend on the processing

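The 32 calls numbered 26 to 43 under the other settings at a threshold of 0.05, and 7 at 0.01 (5 in complex I, 2 in complex IV and 0 in complex V). With array weights complex V had 10. All 32 stayed below 0 in these settings, except NDUFV2 on its dimmest probe set (0.03). Without 1 sow the count was 18 to 32 lower and 0 to 1 higher, that of complex I 11 to 20, that of complex V 4 to 8, and the median difference -0.33 to -0.27. Median centring moved the lower share of all calls from 49.9% to 57.6%, and 0.01 to 40.9%.

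Landrace-higher members numbered 0 with a trend and robust prior, array weights, 0.01, the mean of probe sets, the GAPDH covariate, no pregnancy term, the average over 4 groups or without sows 7 and 12 (a setting chosen after seeing the data), and 0 to 1 without 1 sow. Members lower in pregnant Yorkshire sows numbered 1 without dim probe sets, 7 with array weights, 9 without sows 7 and 12, and 0 to 9 without 1 sow. In Landrace sows they numbered 2 with loess, centring, the mean of probe sets or the GAPDH covariate, 3 without dim probe sets, 15 with array weights, 0 at 0.01, 5 without sows 7 and 12, and 0 to 5 without 1 sow. Causes were not tested.

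Single pregnancy differences that changed sign were, on the mean and dimmest probe sets, SDHB (0.0839 and 0.399), SDHAF2 (0.0432 and 0.127) and VDAC2 (0.0371 and 0.0957), on the dimmest probe set NDUFV2 (0.0349), NDUFA1 (-0.509), DCN (-0.0586), VWF (-0.00111) and SSBP1 (3.95e-05), and ATP5S (0.00985 dimmest, 0.0156 GAPDH, -0.0856 to 0.0125 without 1 sow). Breed differences that changed sign, none called, were CYCS (0.0328 GAPDH, -0.195 to 0.0367 without 1 sow), COX7C (0.0889 dimmest), ATP5H (0.00504 centred, 0.101 GAPDH, 0.0276 without sows 7 and 12, -0.0321 to 0.0417 without 1 sow), ATP5L (0.121 mean, 0.0855 dimmest, 0.0236 GAPDH, -0.0730 to 0.0110 without 1 sow), ATP5B (0.326 GAPDH), COX8H (0.00925 loess, -0.0448 to 0.0191 without 1 sow), and without 1 sow NDUFB10 (-0.00547 to 0.0649), SDHC (-0.00401 to 0.175), COX5B (-0.0564 to 0.00149), ATP5G1 (-0.171 to 0.0174) and COX7A1 (-0.00571 to 0.124). The sample labels state no pairing of pregnant with non-pregnant sows, and no paired analysis was run.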
